A study of Homo sapiens with 16 samples.

Results

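The genes described here were 10 antioxidant genes, most of them known targets of the transcription factor NRF2, chosen by symbol from a fixed list. They were NQO1, TXNRD1, SRXN1, GCLM, HMOX1, PRDX1, TXN, GPX1, GPX2 and GPX4, out of 60623 genes listed and 20747 genes with a read in at least 1 of the 16 libraries. Each symbol matched 1 identifier, and all 10 passed the filter on low values in every fit. The libraries came from 2 established human lines, Caco-2 (colorectal adenocarcinoma, used as gut cells) and HepG2 (hepatocellular carcinoma, used as liver cells), grown in a perfused microfluidic chip. Each line was cultured alone (mono-culture) or linked through circulating medium to the other line (co-culture). Within each culture, cells received no free fatty acids (control) or 1 mM free fatty acids (FFA, palmitic and oleic acid), which gave 8 groups of 2 replicates. The labels place collection after 1 day of treatment. The study also describes a longer exposure and does not say which deposited libraries belong to it, so the labels were followed here. The study describes its mRNA-seq as independent experiments, but the labels do not say which libraries came from separate cultures, so p-values measure the spread between these libraries. Both lines are tumour lines in uniform culture and hold none of the other cell types of gut or liver.

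NRF2, encoded by NFE2L2, is held at a low level by the adaptor KEAP1, which passes it to a ubiquitin ligase. Oxidants and electrophiles modify KEAP1, NRF2 accumulates, and with small MAF proteins it binds antioxidant response elements (ARE) near genes for glutathione synthesis, quinone reduction, heme breakdown and the thioredoxin cycle. Glutathione peroxidases and peroxiredoxins then remove peroxides, with glutathione and thioredoxin as their reductants. In liver cells the same genes are known for the handling of lipid peroxides and drugs, and in the gut GPX2 is known as the glutathione peroxidase of the epithelium.

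The promoters of 8 of the 10 genes were in a RefSeq table on GRCh38.p14 that gives 250 bases before and 50 bases after each start, as 11 promoters, with HMOX1 and PRDX1 not matched. The ARE core, written as TGACNNNGC or GCNNNGTCA on the opposite strand, was in a promoter of 3 of the 8 genes, GCLM, GPX2 and TXNRD1, and in 4687 of all 35116 promoters of that length (13.3%). The first count is by gene, over any of its promoters, and the second is by promoter, so the shares are not alike. All 3 genes with a core are shown. GCLM had hardly any reads, GPX2 had the largest difference between lines, and TXNRD1 holds the core in both of its promoters shown. Capitals mark the core, and each window is written in the direction of the gene.
GCLM, chr1:93909446-93909474, minus strand: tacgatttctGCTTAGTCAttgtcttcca
GPX2, chr14:64942849-64942877, minus strand: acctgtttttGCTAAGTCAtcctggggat
TXNRD1 first promoter, chr12:104215670-104215698, plus strand: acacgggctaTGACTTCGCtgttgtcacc
TXNRD1 second promoter, chr12:104286920-104286948, plus strand: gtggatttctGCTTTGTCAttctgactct
The cores of GCLM, GPX2 and the second TXNRD1 promoter were read on the opposite strand, and began 34, 122 and 102 bases before the start. The first TXNRD1 promoter held a further core on the opposite strand, 8 bases before the start, which is not shown. The AP-1 heptamer TGACTCA, which shares its first letters with the ARE core, was in none of the members' 11 promoters and in 4.95% of all promoters. A match is a description of these letters and not a binding site.

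Values are in CPM, which relates a gene's reads to its library's total but not to transcript length, so levels are compared between libraries and not between genes. Depth ran from 49634 reads in HepG2 co-culture FFA replicate 2 to 1657430 reads in HepG2 co-culture control replicate 1, and from 353871 to 974654 reads in Caco-2. A read was therefore worth 0.603 to 20.1 CPM, and the floor of 3 reads lay between 1.81 and 60.4 CPM. In HepG2 the 4 FFA libraries (49634 to 424538 reads) were all shallower than the 4 control libraries (430815 to 1657430 reads), so depth and FFA moved together there. Of 10 HepG2 markers fixed for the check, 9 were higher in all HepG2 than in all Caco-2 libraries, and the exception was TTR. Of 10 Caco-2 markers, 3 separated the lines in that way (CDH17, PHGR1 and MUC13), and CDX1 was at 0 in all 16 libraries. The HepG2 markers summed to 47989 and 66546 CPM in HepG2 co-culture FFA, to 33072 to 44328 CPM in the other 6 HepG2 libraries, to 5309 to 6253 CPM in Caco-2 mono-culture and to 6866 to 7076 CPM in Caco-2 co-culture, with HP at 0 in 5 of the 8 Caco-2 libraries. The Caco-2 markers summed to 129 to 153 CPM in Caco-2 mono-culture and 180 to 205 CPM in Caco-2 co-culture, to 14.5 to 25.4 CPM in HepG2 mono-culture and co-culture controls, and to 61.2 and 100.7 CPM in HepG2 co-culture FFA, with 6 to 9 of the 10 at 0 in each HepG2 library and 9 in both co-culture FFA libraries. In such bulk libraries, fewer cells of a type and less RNA per cell cannot be told apart.

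Between the lines, GPX2 had the largest difference of the 10 genes. Averaged over the 4 conditions, 4 of the 10 genes passed an adjusted p of 0.05 in limma over all 17544 genes tested, where 30.3% of all genes did. NQO1 and GPX2 were higher in HepG2, against a background of 12.5% of genes called higher, and TXN and GPX4 were lower, against 17.9% called lower. The median difference of the 10 genes' 3 families, in log2(CPM + 1), was 0.38 for the 5 NRF2 targets, -0.16 for PRDX1 and TXN and 0.60 for the 3 glutathione peroxidases, beside -0.16 over all genes tested.

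**Figure D1:**
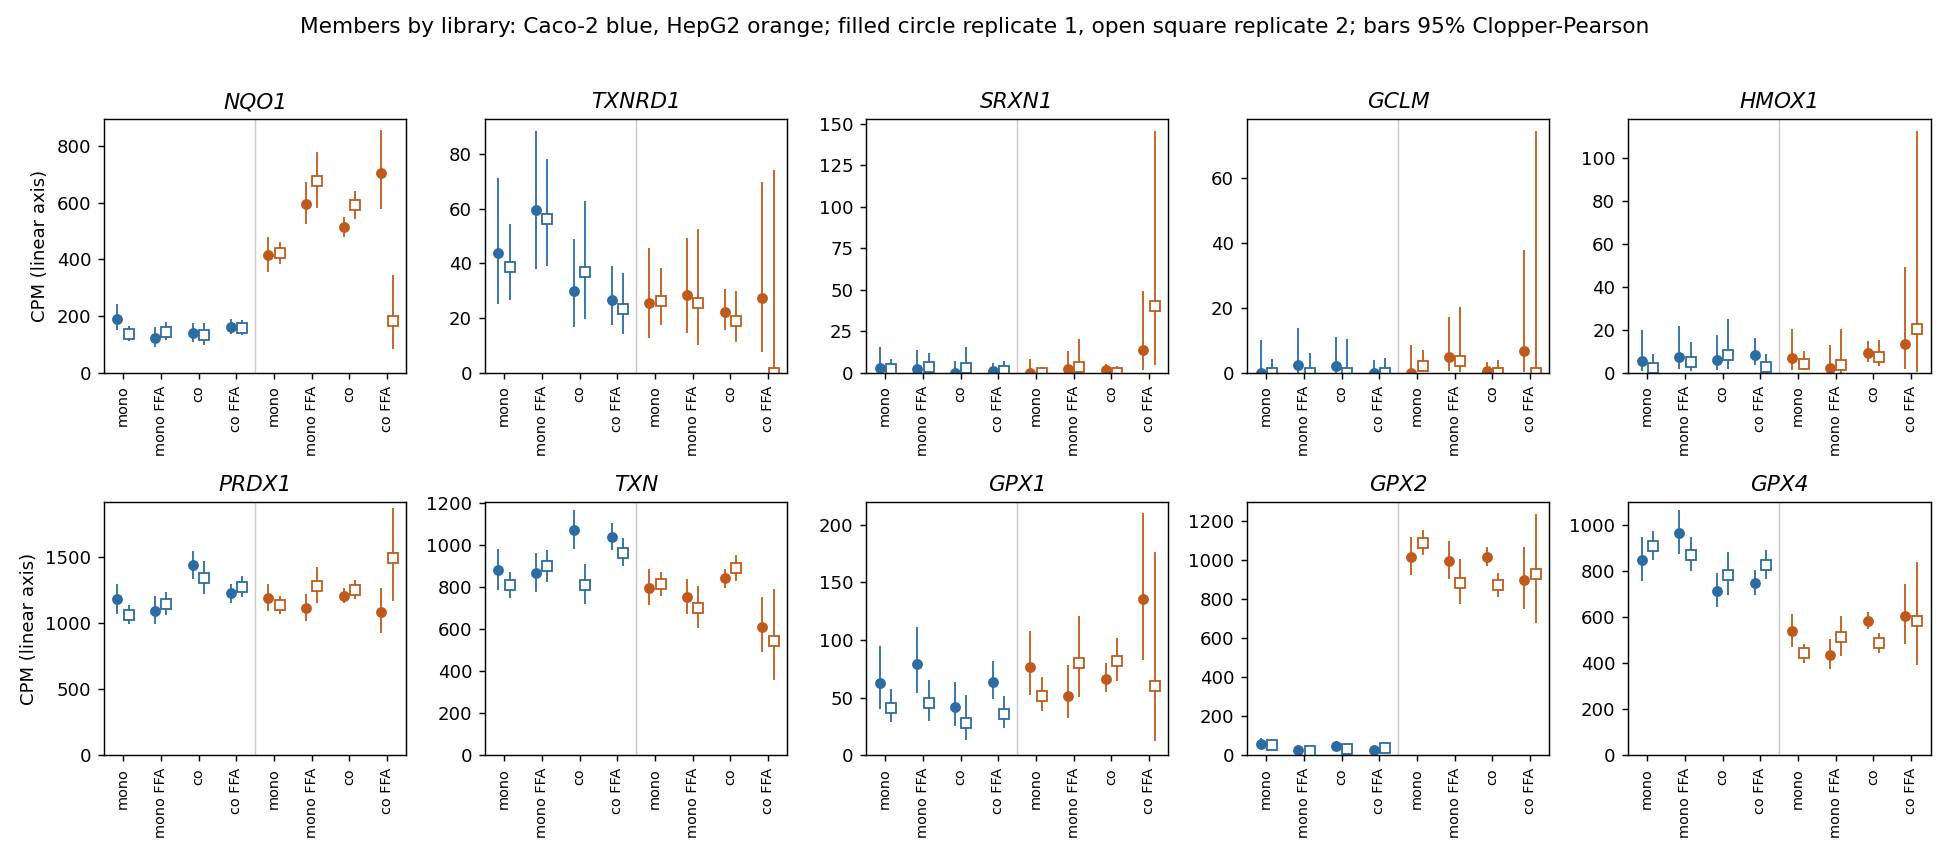
CPM of each gene (vertical axes, linear, from 0) in the 16 libraries by group, with Caco-2 in blue and HepG2 in orange, replicate 1 as filled circles, replicate 2 as open squares and bars for 95% Clopper-Pearson intervals of counting error. GPX2 lies between 24.1 and 57.5 CPM in Caco-2 and between 870 and 1087 CPM in HepG2, while the bars of SRXN1, GCLM and HMOX1 are as tall as their panels in the shallowest HepG2 libraries.

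GPX2 (chr14:64939152-64942746, minus strand, GRCh38 with GENCODE 44 as for the genes that follow) reduces hydrogen peroxide and fatty acid hydroperoxides with glutathione and is known for its place in the intestinal epithelium. In Caco-2 it was at 57.5 and 50.5 CPM in mono-culture controls, 29.7 and 24.1 CPM in mono-culture FFA, 49.5 and 31.1 CPM in co-culture controls and 26.7 and 39.4 CPM in co-culture FFA. In HepG2 it was at 1017 and 1087 CPM, 996 and 884 CPM, 1017 and 870 CPM, and 897 and 927 CPM in the same order. All 8 HepG2 libraries lay above all 8 Caco-2 libraries, in the liver line rather than the gut line. The difference was 4.66 (SE 0.12) on the log2(CPM + 1) scale, or 25.4-fold (limma adjusted p = 2.51e-12), and 4.26 (SE 0.24) between the mono-culture controls alone (limma adjusted p = 4.97e-08). CHURC1, which overlaps GPX2 on the other strand, had a median of 118 CPM in Caco-2 and 210 CPM in HepG2, and the strand setting of the counting is not given in the sources used here. In Caco-2 the co-culture range of GPX2 (26.7 to 49.5 CPM) lay within its mono-culture range (24.1 to 57.5 CPM).

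GPX4 (chr19:1103982-1106791, plus strand), the glutathione peroxidase that acts on phospholipid hydroperoxides in membranes and holds back ferroptosis, went the other way. Caco-2 values were 851 and 911 CPM in mono-culture controls, 967 and 873 CPM in mono-culture FFA, 715 and 786 CPM in co-culture controls and 749 and 828 CPM in co-culture FFA. HepG2 values were 539 and 443 CPM, 438 and 513 CPM, 585 and 486 CPM, and 605 and 584 CPM. The groups of 8 did not overlap, and GPX4 was lower in HepG2, with a difference of -0.67 on the log2 scale (SE 0.07, limma adjusted p = 3.47e-06). The mono-culture controls gave -0.85 (SE 0.14, limma adjusted p = 0.000915), so that in them GPX2 and GPX4 were the 2 of 10 genes called, where 10.6% of all genes were.

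GPX1 (chr3:49357174-49358605, minus strand), the widely expressed cytosolic glutathione peroxidase, ranged from 28.3 to 79.1 CPM in Caco-2 (median 43.3) and from 51.8 to 136 CPM in HepG2 (median 71.5). The ranges overlapped, and the difference of 0.60 (SE 0.23) did not pass (limma adjusted p = 0.0613, and 0.0621 in DESeq2). It passed in edgeR (0.59, adjusted p = 0.00237), and in limma with a filter at 10 CPM (adjusted p = 0.0395), without mitochondrial genes in the scaling (0.68, adjusted p = 0.0365) and with a replicate block (adjusted p = 0.0368). It also passed in limma without HepG2 co-culture FFA replicate 2 (0.74, adjusted p = 0.0156), while thinning all libraries to 49634 reads gave 0.25 (limma adjusted p = 0.687). The highest value, 136 CPM in HepG2 co-culture FFA replicate 1, stood on 20 reads, and the other replicate of that group had 3 reads (60.4 CPM).

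NQO1 (chr16:69706996-69726668, minus strand), the quinone reductase often read as the marker of NRF2 activity, was higher in HepG2. Caco-2 libraries held 192 and 137 CPM in mono-culture controls, 121 and 145 CPM in mono-culture FFA, 141 and 133 CPM in co-culture controls and 162 and 158 CPM in co-culture FFA. HepG2 libraries held 415 and 421 CPM, 596 and 677 CPM, 513 and 592 CPM, and 707 and 181 CPM. Of the 8 HepG2 libraries, 7 lay above every Caco-2 library, and the exception was the shallowest, co-culture FFA replicate 2, with 9 reads. The difference was 1.69 (SE 0.21), or 3.24-fold (limma adjusted p = 2.17e-05), and 1.87 without the co-culture FFA groups of both lines (limma adjusted p = 1.48e-09). Between the mono-culture controls it was 1.36 (SE 0.41) and did not pass in limma (adjusted p = 0.0524), while edgeR and DESeq2 both called it there.

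**Figure D2:**
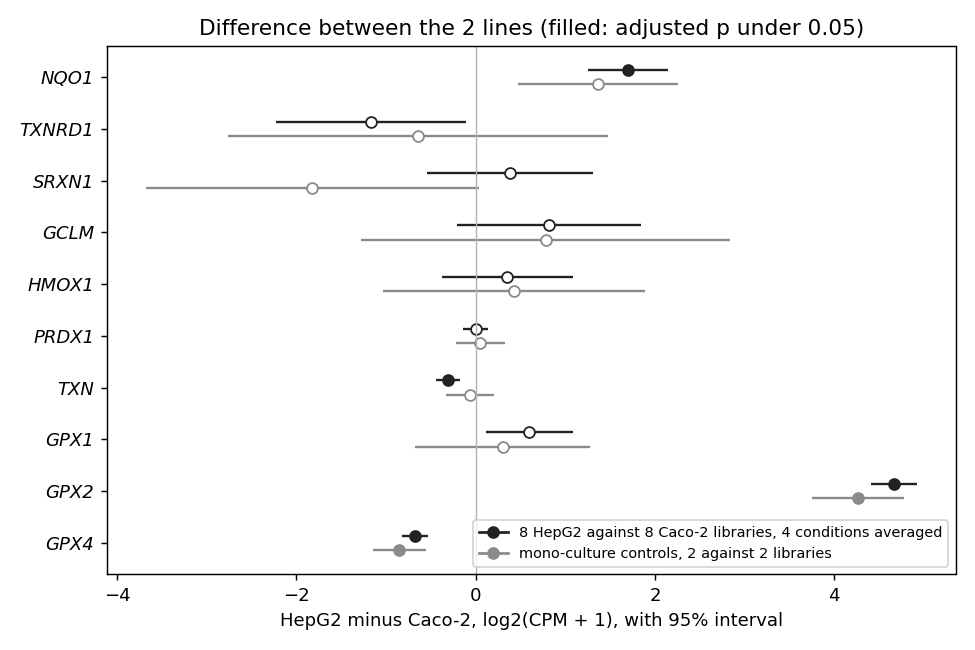
HepG2 minus Caco-2 in log2(CPM + 1) for each gene (horizontal axis) with 95% intervals, averaged over the 4 conditions (black, 8 against 8 libraries) and in mono-culture controls (grey, 2 against 2), where filled points passed an adjusted p of 0.05. GPX2 stands at 4.66 and GPX4 at -0.67, and PRDX1 lies at 0.

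Thioredoxin (TXN, chr9:110243810-110256507, minus strand), the small dithiol protein that carries electrons to peroxiredoxins and ribonucleotide reductase, was at 808.5 to 1070 CPM in Caco-2 and 544 to 889 CPM in HepG2. The averaged difference was -0.31 (SE 0.06, limma adjusted p = 0.00159), with overlapping ranges. It did not pass without the co-culture FFA groups (-0.15, limma adjusted p = 0.124), with the same thinning (-0.20, limma adjusted p = 0.308) or with a constant prior variance (-0.31, limma adjusted p = 0.134). In the mono-culture controls it was -0.07 (SE 0.13).

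PRDX1 (chr1:45510914-45542732, minus strand), an abundant cytosolic peroxiredoxin that reduces hydrogen peroxide with thioredoxin, had 5927 reads in the 8 Caco-2 libraries and 5927 reads in the 8 HepG2 libraries, from 4888029 and 4953377 reads in all. It ranged from 1066 to 1440 CPM in Caco-2 and from 1088 to 1491 CPM in HepG2. Its difference was 0.00 with a 95% interval from -0.14 to 0.14 (SE 0.06), which holds for the CPM scaling only. The neighbours in the order of its 8 group means, from 1391 CPM in Caco-2 co-culture controls to 1121 CPM in Caco-2 mono-culture FFA, all had overlapping ranges. The value moved with the scaling, to -0.14 with median-ratio size factors (limma adjusted p = 0.0825) and to -0.15 in DESeq2 on the recovered reads, which called PRDX1 (adjusted p = 0.0355).

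TXNRD1 (chr12:104215779-104350307, plus strand), the selenoprotein reductase that recharges thioredoxin, had 23.4 to 59.4 CPM in Caco-2 (181 reads) and 0 to 28.3 CPM in HepG2 (116 reads). The averaged difference of -1.17 (SE 0.49) did not pass (limma adjusted p = 0.0913), but it did without the co-culture FFA groups (-0.79, limma adjusted p = 0.00218), in edgeR (-0.73, adjusted p = 0.00461) and in DESeq2 (-0.81, adjusted p = 0.0182). In HepG2 co-culture FFA replicate 2 it had 0 reads, with a Clopper-Pearson interval up to 74.3 CPM, above the level in any other HepG2 library. The processed pseudogene RPL18AP3 lies within TXNRD1 on the same strand and held 35817 reads, beside 297 for TXNRD1, so reads at this locus may have been divided between them.

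The remaining 3 NRF2 targets were near the floor. SRXN1 (chr20:646615-653200, sulfiredoxin, which restores over-oxidised peroxiredoxins) had 9 reads in each line, with at most 3 in a library. GCLM (chr1:93885199-93909456, the modifier subunit of glutamate-cysteine ligase, the first enzyme of glutathione synthesis) had 2 reads in Caco-2 and 7 in HepG2, and was at 0 in 9 of the 16 libraries. HMOX1 (chr22:35380361-35394214, heme oxygenase, which breaks down heme) had 26 reads in Caco-2 and 34 in HepG2, a ratio of 1.29 with a counting interval from 0.752 to 2.24. None of the 3 passed between lines in limma over all libraries. GCLM passed without HepG2 co-culture FFA replicate 2 (1.19, limma adjusted p = 0.0416) and SRXN1 with thinning (1.22, limma adjusted p = 0.015), both on a few reads.

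Within HepG2, 0 of the 10 genes passed for FFA in mono-culture, FFA in co-culture, co-culture without FFA, co-culture with FFA, co-culture averaged over treatment or the interaction of FFA and co-culture, where the share of all 14430 genes called was 0%. For FFA averaged over culture it was also 0 of 10, where 0.0762% of all genes were called. At an unadjusted p under 0.05 limma gave 2 of the 10 for FFA in co-culture and for FFA averaged over culture (SRXN1 and TXN, beside 15.9% and 13.8% of all genes), 3 for co-culture with FFA (SRXN1, HMOX1 and TXN, beside 14.7%), 2 for co-culture averaged (SRXN1 and HMOX1, beside 7.72%), 1 for the interaction (TXN, beside 6.94%) and 0 for FFA in mono-culture and co-culture without FFA (beside 6.26% and 2.61%). Of these genes, SRXN1 reached the filter of 1 CPM in HepG2 only through its FFA groups. On the recovered reads, edgeR and DESeq2 both called TXN for FFA in co-culture and averaged over culture. DESeq2 also called GPX2 for FFA averaged over culture (-0.38, adjusted p = 0.0216). Neither called a member in the other 5 comparisons.

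TXN had the smallest p of the members under FFA. It was at 796 and 813 CPM in mono-culture controls and 751 and 699 CPM in mono-culture FFA. In co-culture it was at 840 and 889 CPM in controls and 612 and 544 CPM with FFA. All 4 FFA libraries lay below all 4 control libraries, and both co-culture FFA libraries lay below every other HepG2 library. The share of all genes that separated in this way was not counted. The summed markers of both lines were higher in the 2 co-culture FFA libraries than in the other 6, as given above. Of the 10 Caco-2 markers, 9 were at 0 in each of these 2 libraries. The part of the markers in the TXN values was not tested. The co-culture difference was -0.58 (SE 0.12), with an unadjusted p of 0.00091 that did not pass over all genes (limma adjusted p = 0.118). The median difference was -0.26 over all genes and -0.03 over the 1127 genes with a mean above 100 CPM, as TXN had. The TXN difference passed with median-ratio size factors (-0.997, limma adjusted p = 0.0472), in edgeR (-0.79, adjusted p = 0.0057) and in DESeq2 (-0.93, adjusted p = 0.000115). Thinning all HepG2 libraries to 49634 reads gave -0.64 (limma adjusted p = 0.362). The averaged FFA difference was -0.37 (SE 0.08, limma adjusted p = 0.157), and -0.53 in edgeR (adjusted p = 0.00169). TXN stood on 90 and 27 reads in the co-culture FFA libraries, with Clopper-Pearson intervals from 492 to 752 CPM and from 359 to 791 CPM. The order of its values was close to the order of depth, whose part was not tested beyond the thinning.

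**Figure D3:**
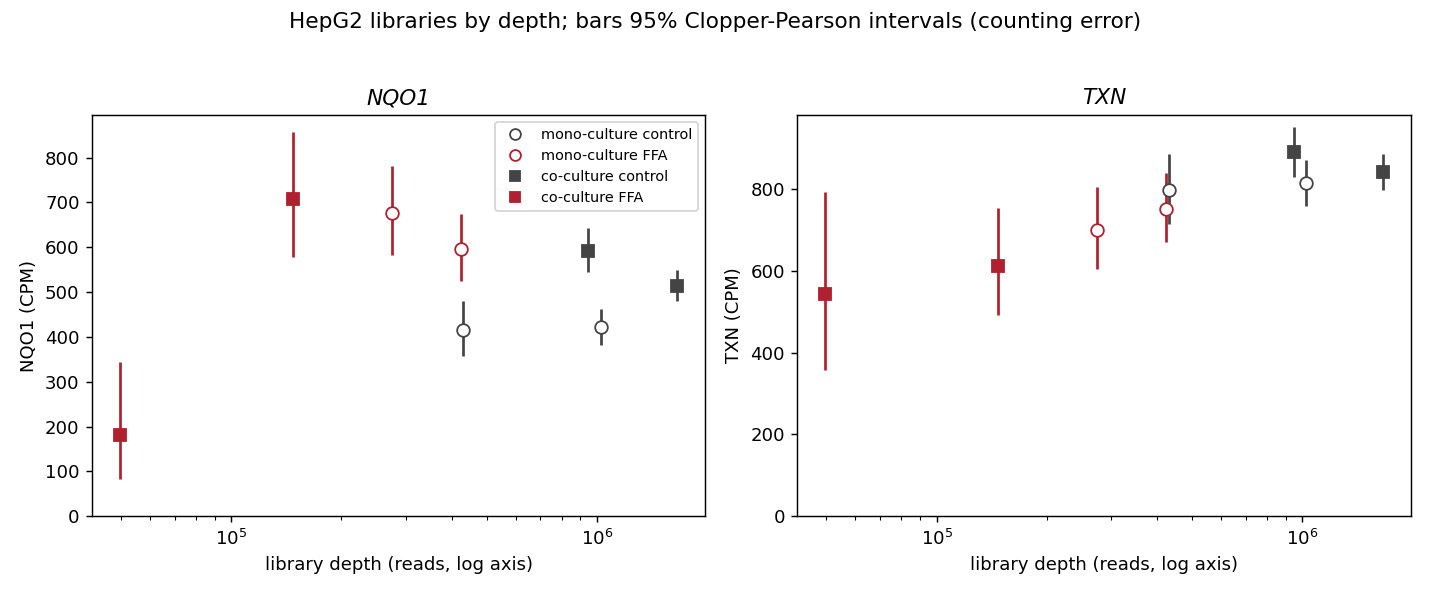
NQO1 and TXN in the 8 HepG2 libraries (vertical axes, CPM, from 0) against depth in reads (log axis), with FFA in red, controls in grey, mono-culture as open circles, co-culture as filled squares and bars for 95% Clopper-Pearson intervals. TXN is lowest in the 2 co-culture FFA libraries, at 612 and 544 CPM, and NQO1 splits them into 707 and 181 CPM.

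NQO1 in HepG2 showed the opposite order in all but the shallowest library. The mono-culture FFA libraries (596 and 677 CPM) lay above the mono-culture controls (415 and 421 CPM), a difference of 0.60 (SE 0.50, limma adjusted p = 0.831). In co-culture, FFA replicate 1 (707 CPM, 104 reads, interval 578 to 857) lay above both controls (513 and 592 CPM), and replicate 2 (181 CPM, 9 reads, interval 82.9 to 344) lay below them. The 2 replicates thus differed beyond counting error, and the averaged FFA difference was -0.01 (SE 0.35, 95% interval -0.82 to 0.80). Without replicate 2 of co-culture FFA it was 0.48 (limma adjusted p = 0.0849), and without replicate 1 it was -0.50 (limma adjusted p = 0.0272). The direction of NQO1 under FFA in HepG2 therefore depended on which of 2 libraries was kept. Without FFA, both co-culture libraries lay above both mono-culture libraries for NQO1 (0.40, SE 0.50, limma adjusted p = 1).

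None of the other members passed within HepG2 in limma either. For FFA averaged over culture, GPX2 gave -0.10 (95% interval -0.30 to 0.09), GPX4 0.06 (-0.20 to 0.32), PRDX1 0.05 (-0.20 to 0.29) and GPX1 0.17 (-0.54 to 0.87). Median-ratio size factors turned the sign of 3 of these, to -0.23 for GPX4, -0.24 for PRDX1 and -0.12 for GPX1, and gave -0.39 for GPX2. For co-culture averaged over treatment, GPX4 gave 0.23 (-0.03 to 0.49), GPX2 -0.10 (-0.29 to 0.09) and TXN -0.11 (-0.30 to 0.08), and with median-ratio size factors they gave 0.04, -0.29 and -0.30. SRXN1 had 6 reads of 896125 in the HepG2 FFA libraries and 3 reads of 4057252 in the controls, a ratio of 9.06 with a counting interval from 1.93 to 56.0, and 4 of the 6 reads came from the 2 shallowest libraries. GCLM had 4 reads with FFA and 3 without, a ratio of 6.04 with a counting interval from 1.02 to 41.2. In HepG2 both genes reached the filter of 1 CPM only through their FFA groups. Their control group means were 0 and 0.905 CPM for SRXN1 and 0.975 and 0.305 CPM for GCLM. A higher value with FFA was thus partly set by the filter, and the ratios are not a test of FFA. HMOX1 had 25 reads in HepG2 co-culture and 9 in mono-culture, a ratio of 2.14 with a counting interval from 0.964 to 5.20. Its 4 co-culture libraries (7.40 to 20.2 CPM) lay above its 4 mono-culture libraries (2.36 to 6.97 CPM), and the fitted difference did not pass (limma adjusted p = 0.631). The highest values, 13.6 and 20.2 CPM in co-culture FFA, stood on 2 reads and 1 read, under floors of 20.4 and 60.4 CPM. Both mono-culture FFA libraries held 1 read. How many of all genes separated alike was not counted. The counting intervals cover counting error only and not the spread between libraries.

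Within Caco-2, 0 of the 10 genes passed in any of the 7 comparisons. The share of all 15454 genes called was 0.00647% for FFA in mono-culture, 0% for FFA in co-culture, for FFA averaged over culture and for the interaction, 0.0971% for co-culture without FFA, 0.0971% for co-culture with FFA and 0.453% for co-culture averaged over treatment. At an unadjusted p under 0.05 limma gave 3 of the 10 for co-culture averaged over treatment, 1 in each family (TXNRD1, PRDX1 and GPX4), beside 11.8% of all genes. The other 6 comparisons gave 1 or 0 at that p, beside 4.85% to 10.3% of all genes. For co-culture averaged edgeR called 2 of the 10 (TXNRD1 and GPX4) and for co-culture with FFA 1 (TXNRD1), and 0 in the other 5, while DESeq2 called 0 in all 7 and gave TXNRD1 no adjusted p in those 2.

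**Figure D4:**
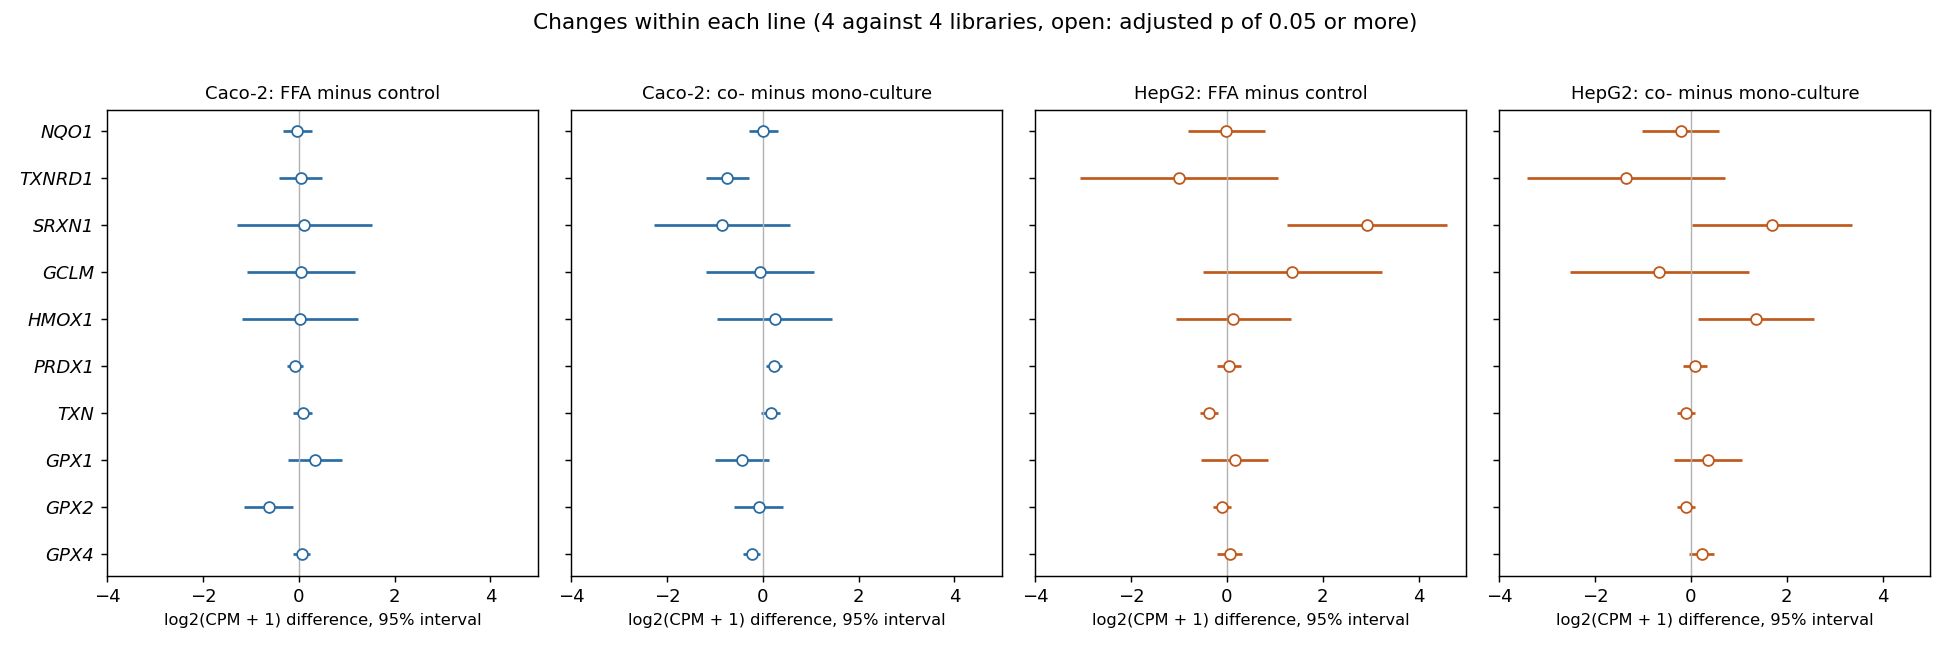
Differences within each line in log2(CPM + 1) (horizontal axes) with 95% intervals for FFA against control and for co-culture against mono-culture, each 4 against 4 libraries, with Caco-2 in blue and HepG2 in orange. All points are open because 0 of 10 genes passed in each of the 4 comparisons, and in HepG2 the intervals of TXNRD1, SRXN1 and GCLM are the widest.

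TXNRD1 separated the Caco-2 cultures. It was at 43.8 and 38.8 CPM in mono-culture controls and at 59.4 and 56.2 CPM in mono-culture FFA. In co-culture it was at 29.7 and 36.7 CPM in controls and at 26.7 and 23.4 CPM with FFA, so all 4 co-culture libraries lay below all 4 mono-culture libraries. The difference with FFA was -1.18 (SE 0.30), with an unadjusted p of 0.00132 that did not pass over all genes in limma (adjusted p = 0.235) and did in edgeR (-1.22, adjusted p = 0.0169). Averaged over treatment it was -0.74 (SE 0.21, limma adjusted p = 0.157, edgeR adjusted p = 0.0191). These values stood on 13 to 35 reads a library. With a library left out, limma called both differences without either replicate of Caco-2 co-culture FFA, and the averaged one also without Caco-2 co-culture control replicate 2. The averaged difference lay between -0.82 and -0.67 over the libraries left out, with limma adjusted p from 0.0416 to 0.132.

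PRDX1 and GPX4 separated the Caco-2 cultures by smaller amounts. The share of all genes that separated these cultures as TXNRD1, PRDX1 and GPX4 did was not counted. PRDX1 was at 1182 and 1066 CPM in mono-culture controls, 1096 and 1146 CPM in mono-culture FFA, 1440 and 1342 CPM in co-culture controls and 1225 and 1276 CPM in co-culture FFA. All 4 co-culture libraries were higher, with a difference of 0.23 (SE 0.07, limma adjusted p = 0.22). The median difference was 0.14 over all genes and 0.008 over the 1122 genes with a mean above 100 CPM, as PRDX1 had. All 4 co-culture libraries were lower for GPX4, with a difference of -0.23 (SE 0.08, limma adjusted p = 0.316, edgeR adjusted p = 0.0465). With median-ratio size factors, which lowered the PRDX1 difference by 0.10, the PRDX1 value was 0.14 and the GPX4 value -0.32. The summed markers of both lines were higher in all 4 Caco-2 co-culture libraries, as given above, and their part in the values of TXNRD1, PRDX1 and GPX4 was not tested.

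GPX2 had the smallest p of the members under FFA in Caco-2. In mono-culture it went from 57.5 and 50.5 CPM to 29.7 and 24.1 CPM, a difference of -0.98 (SE 0.34) with an unadjusted p of 0.0108 that did not pass over all genes (limma adjusted p = 0.837). In co-culture the difference was -0.27 (SE 0.34), with overlapping values, and averaged over culture it was -0.63 (SE 0.24, limma adjusted p = 0.829). It stood on 11 to 43 reads a library. NQO1 gave -0.03 for FFA averaged over culture, with a 95% interval from -0.34 to 0.27, and TXN gave 0.08 (-0.12 to 0.28). Neither interval reaches a 2-fold change. SRXN1, GCLM and HMOX1 had ratios of FFA to control reads of 0.922 (0.198 to 4.65), 0.738 (0.0094 to 57.9) and 1.18 (0.504 to 2.91) by counting error.

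The FFA effect differed between lines for 0 of the 10 genes, where 0.0912% of all genes were called, and the co-culture effect for 0 of 10, where 0.0969% were. At an unadjusted p under 0.05 limma gave 3 for each, SRXN1, TXN and GPX2 for FFA and SRXN1, TXN and GPX4 for co-culture, beside 11.4% and 9.72% of all genes. TXN had the smallest p for FFA. Its effect was -0.37 in HepG2 and 0.08 in Caco-2, a difference of -0.45 (SE 0.13, limma adjusted p = 0.165), while edgeR gave -0.74 (adjusted p = 0.00153) and DESeq2 -0.68 (adjusted p = 0.000307). Without Caco-2 co-culture control replicate 1 limma also called it, as it did without HepG2 co-culture FFA replicate 1. GPX4 had the smallest p for co-culture, with a difference of 0.45 (SE 0.14, limma adjusted p = 0.275), from 0.23 in HepG2 and -0.23 in Caco-2.

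The summed level of the 10 genes was 3058 to 3495 CPM in Caco-2 and 3848 to 4265 CPM in HepG2. The 5 NRF2 targets together held 178 to 244 CPM in Caco-2 and 242 to 768 CPM in HepG2, most of it NQO1. Pseudogenes of the 10 genes took few reads, 9 of them beside 36403 for the genes themselves (0.0247%), under symbols of TXN, PRDX1 and GPX1.

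Between the lines, where 12.5% of all genes were called higher in HepG2 and 17.9% lower, the regulators of the pathway gave 0 higher and 2 lower of 11 tested (12 listed), close to the share over all genes for lower calls. They were MAFF (-1.94, SE 0.50, limma adjusted p = 0.00919), a small MAF partner of NRF2, and TXNIP (-1.81, SE 0.47, limma adjusted p = 0.00961), the inhibitor of thioredoxin. MAFF had 48 reads in Caco-2 and 13 in HepG2, where 3 libraries were at 0. TXNIP was at 0 in HepG2 co-culture FFA replicate 2, whose floor of 60.4 CPM lay above the Caco-2 median of 53.5 CPM. NFE2L2 ranged from 27.1 to 59.4 CPM in Caco-2 and from 18.6 to 61.2 CPM in HepG2, a difference of 0.18 (SE 0.18, limma adjusted p = 0.472). KEAP1 had 23 reads in Caco-2 and 44 in HepG2 (1.11, SE 0.64, limma adjusted p = 0.216). In Caco-2, NFE2L2 was at 46.5 and 42.3 CPM in mono-culture controls, 59.4 and 53.0 CPM in mono-culture FFA, 31.7 and 28.3 CPM in co-culture controls and 27.7 and 27.1 CPM in co-culture FFA. All co-culture libraries lay below all mono-culture libraries for NFE2L2, with a difference of -0.78 (SE 0.20) that did not pass (limma adjusted p = 0.127). How many of all genes separated these cultures alike was not counted, and a link to the members was not tested.

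**Figure D5:**
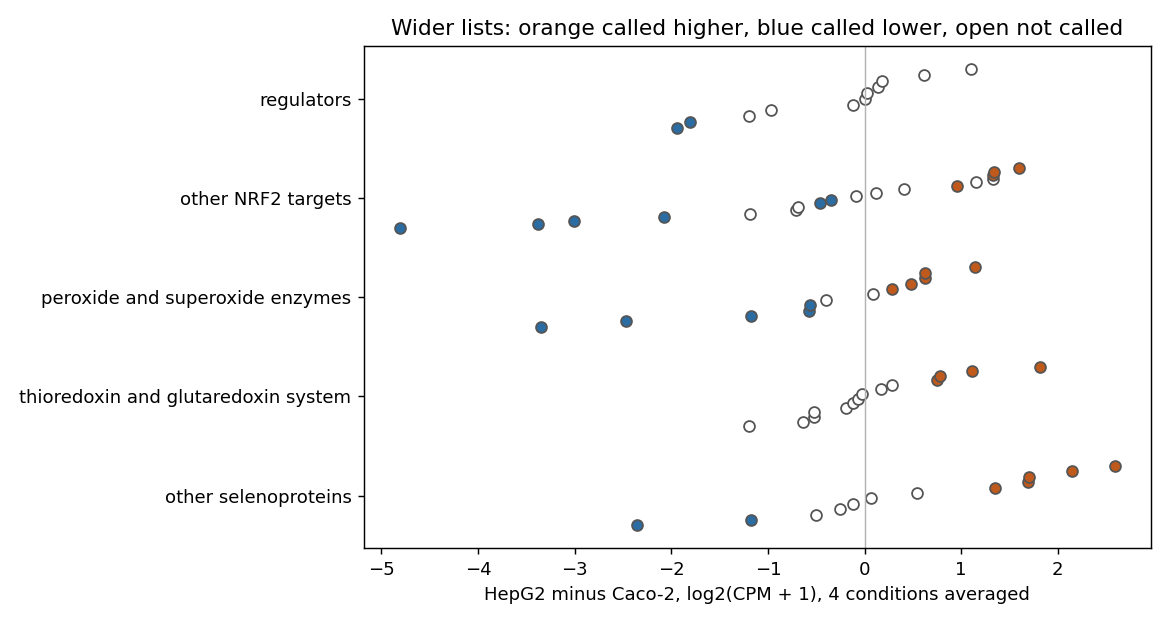
HepG2 minus Caco-2 in log2(CPM + 1), averaged over the 4 conditions (horizontal axis), for the genes of 5 wider lists, each point a gene, with orange called higher, blue called lower and open points not called. Calls fall on both sides of 0 except for the regulators, with 2 lower, and for the thioredoxin and glutaredoxin system, with 4 higher.

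Other NRF2 targets went both ways between lines. Of 18 tested, 4 were called higher and 6 lower in HepG2, beside 12.5% and 17.9% of all genes, with a median of -0.21 beside -0.16 over all genes. ME1, the cytosolic malic enzyme that makes NADPH, had 133 reads in Caco-2 and 0 of 4953377 reads in HepG2, so it was at least 44.9-fold lower in HepG2 against a floor of 3 reads over the line. CES1, a carboxylesterase of liver, was lower in HepG2 (-3.38, SE 0.46, limma adjusted p = 5.8e-05), and UGDH, which makes UDP-glucuronate, was higher (1.60, SE 0.25, limma adjusted p = 0.000229). GCLC, the catalytic subunit that pairs with GCLM, was higher in HepG2 (1.33, SE 0.24, limma adjusted p = 0.00066), and the cystine carrier SLC7A11 gave 1.15 (SE 0.47) and did not pass (limma adjusted p = 0.0787). In mono-culture controls, ME1 and the pentose phosphate enzyme TKT (-0.66, SE 0.18, limma adjusted p = 0.028) passed, both lower.

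The enzymes that work beside the members also split. Of 12 tested peroxide and superoxide enzymes, 5 were higher and 5 lower in HepG2, beside 12.5% and 17.9% of all genes. GPX3, the secreted glutathione peroxidase, was lower (-3.35, SE 0.30, limma adjusted p = 1.04e-06), as was PRDX6 (-0.56, SE 0.06, limma adjusted p = 9.56e-06), and PRDX2 was higher (0.62, SE 0.08, limma adjusted p = 2.09e-05). SOD2, the mitochondrial superoxide dismutase, is listed under 2 identifiers, so its value in mono-culture controls (1.34, SE 0.30, limma adjusted p = 0.011) is uncertain. CAT (catalase) gave -0.40 (SE 0.30, limma adjusted p = 0.348). Of 14 tested genes of the thioredoxin and glutaredoxin system, 4 were higher and 0 lower, beside the same shares of all genes, led by TXNL1 (1.82, SE 0.17, limma adjusted p = 1.9e-06), GLRX2 (1.11, SE 0.18, limma adjusted p = 0.000247) and GLRX (0.78, SE 0.11, limma adjusted p = 0.000101).

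Within the lines, 1 gene of these lists passed in any comparison. CES1 was higher in Caco-2 co-culture, at 210 and 223 CPM in controls and 215 and 199.6 CPM with FFA against 118 and 114 CPM and 141 and 159 CPM in mono-culture (0.68, SE 0.12, limma adjusted p = 0.0245). For FFA averaged over culture in HepG2, the genes with the smallest p in each list did not pass, and were SQSTM1 (0.75), GCLC (0.82), PRDX3 (0.70), GLRX3 (0.64) and SELENOP (0.45), with limma adjusted p from 0.141 to 0.211. GCLC was at 53.4 and 62.6 CPM in mono-culture controls, 70.7 and 80.0 CPM in mono-culture FFA, 36.2 and 30.7 CPM in co-culture controls and 81.6 and 80.6 CPM in co-culture FFA, so all 4 FFA libraries lay above all 4 controls. The values of the co-culture FFA libraries stood on 12 and 4 reads, and how many of all genes separated alike was not counted. For FFA in Caco-2 the corresponding genes were MAFF (-1.12), BLVRB (0.40), PRDX4 (0.21), MSRA (1.00) and SELENOF (0.35), each with a limma adjusted p of 0.829. For co-culture, PRDX2 (0.37), GLRX (0.25) and MSRB1 (1.08) were those of Caco-2 beside NFE2L2, and CUL3 (1.87), GPX3 (1.73), SESN2 (-2.04) and SELENOP (0.23) those of HepG2, and none of these 7 passed. CUL3 had 23 reads over the 8 HepG2 libraries. Its highest value, 20.2 CPM in co-culture FFA replicate 2, lay under the floor of 60.4 CPM of that library.

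The comparisons of single conditions gave no call in these lists. In HepG2 co-culture, FFA gave GCLC at 1.26, GLRX3 at 0.94, SELENOP at 0.53, SQSTM1 at 1.00 and SOD1 at -0.68 as the smallest p of their lists, with limma adjusted p from 0.137 to 0.227. In HepG2 mono-culture they were PGAM5 (-1.36), IDH1 (0.74), PRDX3 (0.72), GLRX (0.50) and SELENOS (0.60), with limma adjusted p from 0.712 to 0.796. PGAM5 was near the floor, with 2 reads over all 8 HepG2 libraries and 6 of them at 0. For HepG2 co-culture with FFA they were CUL3, GPX3, SESN2 and SELENOM (adjusted p from 0.212 to 0.29), and without FFA PGAM5, GCLC, SOD2, SESN2 and SELENOM (adjusted p of 1). In Caco-2, CES1 came nearest, for co-culture without FFA (0.90, limma adjusted p = 0.0673), beside BACH1, PRDX3, GLRX and SELENOF. With FFA they were NFE2L2 (-1.01, limma adjusted p = 0.377), CES1, PRDX2, SESN2 and SEPHS2, and for FFA itself KEAP1, BLVRB, PRDX4, TXNL1 and SELENOF in mono-culture and MAFF, PGD, PRDX3, MSRA and SELENOK in co-culture. The interactions were led by KEAP1, IDH1, PRDX3, TXNL1 and SELENOF in Caco-2 and by CUL3, EPHX1, SOD1, TXNRD2 and SELENOM in HepG2.

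The FFA effect differed between lines for 0 genes of the wider lists, with TKT (0.63), PRDX3 (0.87), GLRX3 (0.66), SELENOP (0.40) and SQSTM1 (0.59) at the smallest p (limma adjusted p from 0.178 to 0.515). The co-culture effect likewise gave 0, with NFE2L2 at 1.20 (SE 0.36, limma adjusted p = 0.28), GPX3 at 1.65, ABCC3 at -1.93, GLRX at -0.59 and SELENOI at -2.19.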

How the data were processed

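Polyadenylated RNA of 16 libraries was measured by Oxford Nanopore PCR-cDNA sequencing. The extraction text of the labels names another cell type, so it was not used. The submitters' processing notes name minimap2 2.22 and GRCh38 with no role given, and the mRNA-seq steps the study describes are not stated to hold for Nanopore reads. The deposited values are named TPM, but they are whole multiples of a step in each library, so they were used as CPM. Reads were recovered from that step (99.6% to 100% of values whole within 0.1 read), and 3 reads were taken as the floor. Of 60623 identifiers, 60295 (99.459%) were in GENCODE 44, and 0 rows named no gene.

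Genes whose mean reached 1 CPM in any group were tested on log2(CPM + 1) with limma 3.58.1 (trended prior) in R 4.3.3, with Benjamini-Hochberg adjustment over all genes at 0.05. Each line was fitted on its 8 libraries, and comparisons between lines on all 16. edgeR 4.0.16 and DESeq2 1.42.0 ran on recovered reads as alternatives, with other pseudocounts, filters, scalings, priors, thinning, a replicate block and each library left out. A fit without the co-culture FFA groups of both lines was added after the data had been seen. The scripts were tested on simulated data. Where the libraries of a gene did not overlap between groups, the share of all genes that separated alike was not counted. Counting intervals are 95% Clopper-Pearson, and ratios of reads use the exact conditional interval. Reads were amplified by PCR without molecular identifiers, so these cover counting error only. The members and lists were chosen with earlier results of these data known. All 10 members were named, with up to 3 called genes a wider list and comparison, or otherwise the gene with the smallest p, and NFE2L2, KEAP1, GCLC, SLC7A11 and CAT in any case. A gene that this rule names in HepG2 co-culture is not reported here. Promoters are from RefSeq on GRCh38.p14.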

Additional observations from a re-analysis of the deposited data

How the results depend on the processing

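Within lines and for differences between lines, limma called 0 of 10 genes throughout, and the following alternatives gave other counts. For Caco-2 co-culture edgeR called 1 with FFA and 2 averaged over treatment. For HepG2 FFA in co-culture, median-ratio size factors, edgeR and DESeq2 each called 1 (TXN) and thinning to 49634 reads 1 (SRXN1), as thinning did for HepG2 co-culture with FFA. For HepG2 FFA averaged over culture edgeR called 1 and DESeq2 2, and for the difference of FFA effects both called 1. Between the mono-culture controls a constant prior variance gave 1 and thinning 0, from 2. The cause was not tested. edgeR's filter kept 7 of the 10 genes (not SRXN1, GCLM or HMOX1). Over all genes, Caco-2 co-culture averaged gave 70 calls in limma, 389 in edgeR and 96 in DESeq2, and HepG2 FFA averaged 11, 535 and 376.

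Leaving out each library in turn gave 0 to 1 genes for Caco-2 co-culture with FFA and averaged, 0 to 4 for HepG2 FFA in co-culture and averaged, 0 to 3 for HepG2 co-culture with FFA, 0 to 2 for HepG2 co-culture averaged and the interaction, 4 to 7 between lines, 0 to 3 for the difference of FFA effects and 0 to 2 for that of co-culture effects. The highest HepG2 counts came without co-culture FFA replicate 1, which leaves the 49634-read library alone in its group, assumed to vary like the other groups. The 7 came without replicate 2, which added TXNRD1, GCLM and GPX1.

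Median-ratio size factors moved the PRDX1 difference by -0.41 for HepG2 FFA in co-culture, -0.29 for HepG2 FFA averaged and -0.14 between lines. PRDX1 under FFA in HepG2 turned from 0.05 to -0.37 in co-culture and from 0.05 to -0.24 averaged with them, and to -0.39 and -0.26 in DESeq2. With a library left out, NQO1 in HepG2 ran from -1.60 to 0.36 for FFA in co-culture, -0.50 to 0.48 for FFA averaged and -0.70 to 0.28 for co-culture averaged, and its FFA difference between lines from -0.47 to 0.51. The co-culture difference of TXNRD1 between lines ran from -1.82 to 0.59.

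The groups share only replicate numbers, and the deviations of same-numbered libraries had a mean correlation of 0.012 in Caco-2 and 0.0033 in HepG2 over all genes, and of 0.151 (-0.017 to 0.291 over pairs of groups) and 0.053 (-0.103 to 0.121) over genes above 100 CPM, so not every pair was above 0.1. With a replicate block, 0 of 10 genes were called within lines and for both differences, 5 between lines (adding GPX1) and 2 between mono-culture controls, and Caco-2 co-culture averaged gave 210 calls over all genes.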

Other observations

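The other selenoproteins, which like the glutathione peroxidases carry selenocysteine or serve its incorporation, differed between the lines in both directions. Of 13 listed, 12 were tested, and 5 were called higher and 2 lower in HepG2 by limma averaged over the 4 conditions (12.5% and 17.9% of all genes were), with a median difference of 0.31 in log2(CPM + 1) beside -0.16 over all genes tested. SELENOP, the secreted selenium carrier made mainly by liver, was at 172 to 274 CPM in Caco-2 and at 1013 to 1672 CPM in HepG2, and no library of one line overlapped the other (2.59, SE 0.09, limma adjusted p = 4.58e-11). SELENOF, of the endoplasmic reticulum, was at 45.8 to 97.5 CPM in Caco-2 and 201.95 to 363 CPM in HepG2 (1.70, SE 0.11, limma adjusted p = 4.19e-08). SELENOW, a small cytosolic selenoprotein, was at 103 to 141 CPM in Caco-2 and 14.1 to 35.6 CPM in HepG2 (-2.35, SE 0.15, limma adjusted p = 2.65e-08). The mono-culture controls alone gave the same 3 genes, at 2.48, 1.90 and -2.31.

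Within HepG2, SELENOP was at 1035 and 1013 CPM in mono-culture controls, 1185 and 1463 CPM in mono-culture FFA, 1024 and 1252 CPM in co-culture controls and 1598 and 1672 CPM in co-culture FFA. The averaged FFA difference of 0.45 (SE 0.10) did not pass (limma adjusted p = 0.141), and depth was lower in all 4 FFA libraries.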
